A study of Mus musculus with 4 samples.

Results

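The transcripts described here encode the machinery that decides whether a cell passes from the G1 phase into S phase, namely the D-type cyclins Ccnd1, Ccnd2 and Ccnd3, their kinases Cdk4 and Cdk6, the CIP/KIP inhibitors Cdkn1a and Cdkn1b, the INK4 inhibitors Cdkn2c and Cdkn2d, and Rb1, the kinases' main substrate. They were chosen by name, as the rows of the deposited table with these 10 gene symbols, out of 19991 genes. All 10 were found and all 10 passed the filter on low values. RNA-seq had been made from mouse spermatogonia, the germ cells of the testis that divide by mitosis, to compare differentiating with undifferentiated cells. Differentiating spermatogonia (dSG, 2 libraries) were wild type cells kept with retinoic acid (RA), the vitamin A derivative that starts spermatogonial differentiation, for 36 h, and undifferentiated spermatogonia (SG, 2 libraries) were wild type cells given the solvent DMSO.

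Both groups were grown in vitro in StemPro34 medium with bFGF, the LIF preparation ESGRO, and GDNF/EGF, so the growth factors that keep stem cells dividing were present in both. The study's methods describe a move to dishes coated with Matrigel for differentiation. For the proteomics they describe taking the cells of both groups off feeder cells. Whether surface or feeder cells differed between the dSG and SG libraries is not given in the sources used here. The cells go back to a CD9+/c-Kit- sort of testes from mice a few days old. The labels give the strain as C57BL/6 and the RA dose as 100 µM, while the study's methods name DBA mice or their F1 with a GFP line and give the dose in nanomolar. No source states that the libraries of a group were separate cultures. The p-values below therefore measure only the spread between these libraries, which may be technical.

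As background, D-type cyclins are the cyclins that answer to growth factors. Bound to CDK4 or CDK6 they phosphorylate RB1, which then lets go of the E2F transcription factors that drive the genes of S phase. INK4 proteins bind the kinases and keep the cyclins off, whereas CIP/KIP proteins act mostly on the later CDK2 complexes and also help cyclin D and CDK4 to assemble. In mouse spermatogonia cyclin D2 is known as a mediator of growth factor and Ras signalling in cultured stem cells, and male mice without Cdk4, or without Cdkn2c and Cdkn2d together, are infertile or poorly fertile.

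The D-type cyclins reach RB1 through a short stretch near the start of the protein, leucine, any residue, cysteine, any residue, glutamate. The first 60 coding bases of the 3 cyclins are shown because each of the 3 holds this stretch. Capitals mark the 15 bases that encode it. It lies at codons 5 to 9 of Ccnd1 (GRCm38, chr7:144939634-144939693, minus strand) and at codons 3 to 7 of Ccnd2 (chr6:127150714-127150773, minus strand) and of Ccnd3 (chr17:47593655-47593714, plus strand), and it occurs 1 time in each coding sequence.
Ccnd1: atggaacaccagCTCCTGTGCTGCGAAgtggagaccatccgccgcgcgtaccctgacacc
Ccnd2: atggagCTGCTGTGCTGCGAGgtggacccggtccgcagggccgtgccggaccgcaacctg
Ccnd3: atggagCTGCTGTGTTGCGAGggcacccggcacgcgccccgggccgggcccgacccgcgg
Ccnd2 and Ccnd3 share 14 of these 15 bases, Ccnd1 and Ccnd2 share 13, and Ccnd1 and Ccnd3 share 12. Over the whole coding sequences (885 bases in Ccnd1, 867 in Ccnd2 and 876 in Ccnd3, without the stop codon) the identity was 67.7% for Ccnd1 and Ccnd2, 68.1% for Ccnd2 and Ccnd3 and 64.4% for Ccnd1 and Ccnd3.

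Promoter sequences from RefSeq (GRCm38.p6) were matched for 7 of the 10 genes, at 10 annotated starts. The 250 bases before 3 of these starts are shown, for the inhibitor that fell and for the 2 kinases, whose log2 fold changes had opposite signs. Capitals mark p53 response elements (2 half-sites with no spacer, at most 1 mismatch over 20 bases) and the E-box CACGTG, the site of MYC and its partner MAX. The E-box reads the same on either strand, as does the pattern searched for p53, though not the element shown, because of its mismatch.
Cdkn1a, upstream start (chr17:29090729-29090978, plus strand): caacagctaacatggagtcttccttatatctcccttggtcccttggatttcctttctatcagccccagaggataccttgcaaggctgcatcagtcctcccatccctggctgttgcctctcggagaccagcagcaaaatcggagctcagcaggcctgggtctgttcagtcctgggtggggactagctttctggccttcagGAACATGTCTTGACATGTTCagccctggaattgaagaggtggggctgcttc
Cdk4 (chr10:127063285-127063534, plus strand): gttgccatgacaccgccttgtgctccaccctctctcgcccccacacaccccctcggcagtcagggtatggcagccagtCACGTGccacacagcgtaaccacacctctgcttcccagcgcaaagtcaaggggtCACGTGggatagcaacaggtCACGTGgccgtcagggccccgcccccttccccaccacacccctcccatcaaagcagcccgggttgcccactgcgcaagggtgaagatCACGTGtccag
Cdk6 (chr5:3343643-3343892, plus strand): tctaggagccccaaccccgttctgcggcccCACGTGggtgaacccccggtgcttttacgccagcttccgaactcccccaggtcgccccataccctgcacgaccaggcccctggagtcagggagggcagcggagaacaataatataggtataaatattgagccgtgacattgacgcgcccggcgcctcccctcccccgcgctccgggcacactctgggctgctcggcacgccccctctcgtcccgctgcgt
The window of the upstream start of Cdkn1a, a textbook target of p53, held 1 such element, whose last base lay 32 bases before that start. The window of the gene's other start, not shown, held 0. Of 32851 windows of the same length in the RefSeq table, 0.0731% held one. Cdk4 had 4 E-boxes, ending 167, 113, 93 and 6 bases before its start, a number that 0.0213% of windows reached. Cdk6 had 1, and 6.02% of windows had at least 1. Neither strand of any window of these genes held the E2F sites TTTCGCGC or TTTGGCGC, which were in 0.654% of windows, or a pair of retinoic acid receptor half-sites AGGTCA 5 bases apart, which was in 0.00913%. The single half-site AGGTCA, on either strand, was found in the windows of Cdk4, of 1 of the 2 starts of Ccnd3 and of 1 of the 2 starts of Cdkn2c, and in 14.0% of all windows. In Cdk4 its last 2 letters are also the first 2 of an E-box.

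The 4 libraries held 22307745 and 26921478 reads in dSG and 7484560 and 26953654 reads in SG. Values below are the deposited normalized counts, reads per gene divided by a size factor for the library, and a single read was worth 0.726 and 0.626 of these units in the dSG libraries against 3.26 and 0.629 in the SG libraries. SG library 1 was the shallow one, with 16660 genes detected against at least 18753 in each of the other 3. It also stood apart in composition. Over the tested genes the log2 difference between the libraries of a group had an SD of 0.20 in dSG and 0.81 in SG. Kit and Stra8, which mark differentiating spermatogonia, were higher in dSG (log2 fold changes of 4.12 and 7.33), and 4 of 6 markers of undifferentiated spermatogonia were lower, so the labels of both groups fitted their markers.

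Of the 10 genes, 3 fell in dSG and 0 rose. The 3 were Ccnd1, Ccnd2 and Cdkn1a, with log2 fold changes from -3.14 to -2.66 (limma on log2 normalized counts, adjusted over 14108 genes). Among all tested genes 4.91% were called lower and 1.16% higher. By an unadjusted p under 0.05 there were 4 genes lower, with Cdk4 added, and 1 higher, Cdk6. Of all 14108 tested genes, 2301 were lower and 1476 higher at that limit. The edgeR test on the reads recovered from the table called the same 3 lower and 0 higher, where it called 6% of all genes lower and 1.4% higher, and DESeq2 on those reads called 4 lower and 1 higher, adding Cdk4 and Cdk6, where it called 10.4% and 3.32%. Both dSG libraries lay below both SG libraries for 6 of the 10 genes and above them for 2, against 32.7% and 33.2% of all tested genes. With SG library 1 left out 5 were lower and 3 higher, and with SG library 2 left out 6 and 2, in fits whose spread comes from the close dSG pair alone and which called 28.8% and 31% of all genes lower and higher in the first case and 42.7% and 38.5% in the second. Ccnd1, Ccnd2 and Cdkn1a were among those called lower in all 18 alternatives. The median log2 fold change of the 10 was -0.62, against 0.014 over all tested genes.

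**Figure D1:**
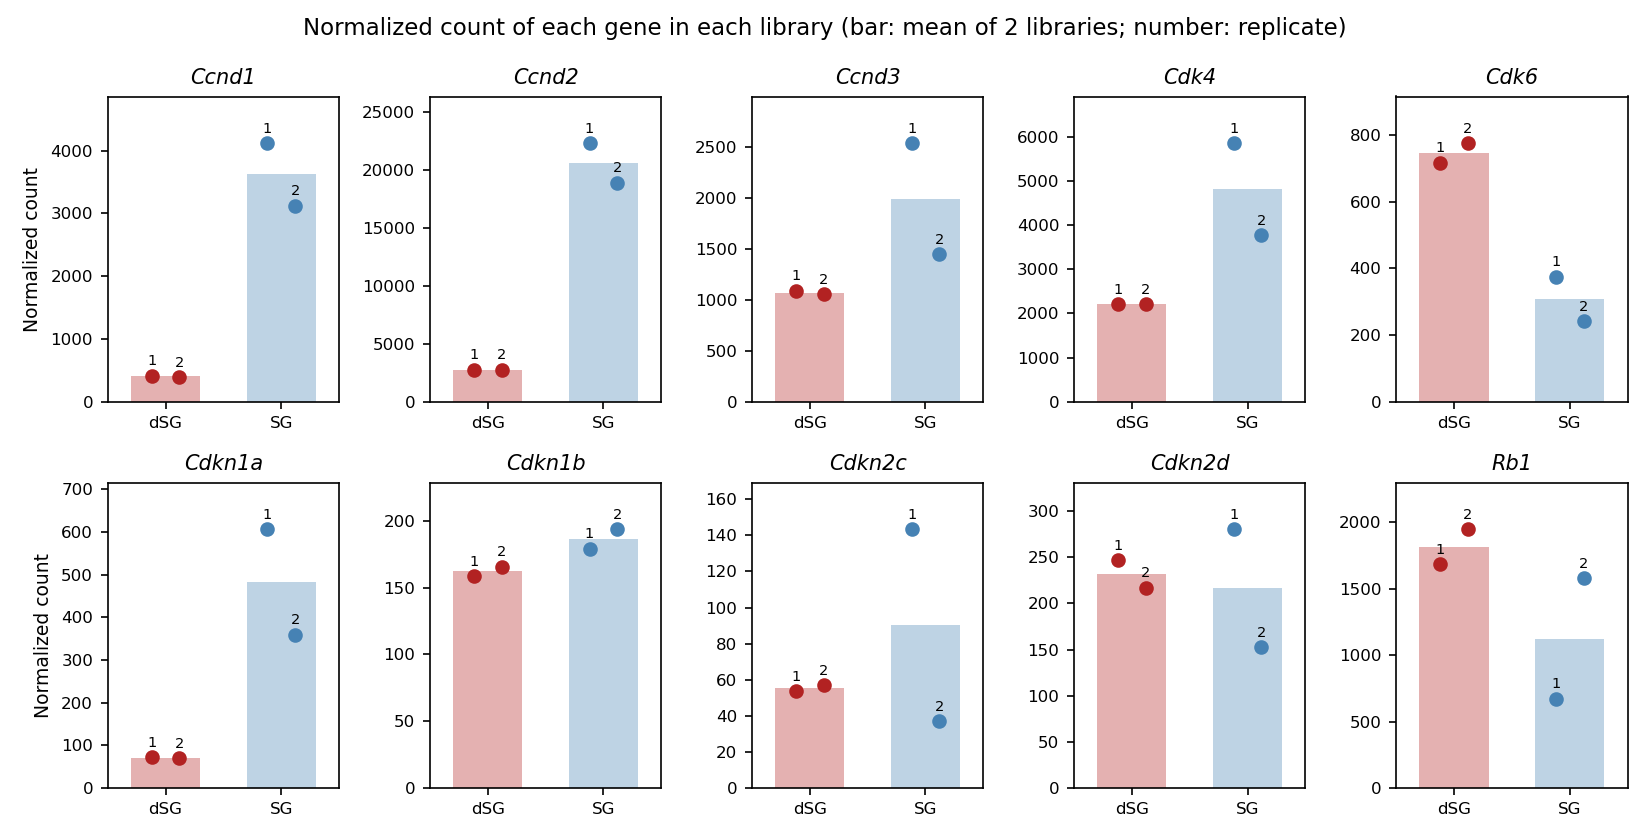
Normalized count (vertical axis, linear, from 0) of each of the 10 genes in dSG libraries (red) and SG libraries (blue). Points are libraries, numbered by replicate, and bars are means of 2. The dSG points lie close together throughout, Ccnd1, Ccnd2 and Cdkn1a sit far below SG, and the SG points are widest apart for Cdkn2c and Rb1.

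Among the D-type cyclins, Ccnd1 showed the largest difference of the 10 genes. Its product, cyclin D1, is the family member most widely induced by mitogens. Ccnd1 had 411 and 394 normalized counts in the dSG libraries, against 4119 and 3124 in the SG libraries. The groups were wide apart, the lowest SG library standing above the highest dSG library by far more than the libraries of either group differed. Means were 402 ± 12.4 in dSG and 3622 ± 704 in SG (SD, n = 2 each), and Ccnd1 was 8.84-fold lower in dSG on the fitted scale. The log2 fold change was -3.14 (SE 0.22, 95% interval -3.72 to -2.56, limma adjusted p = 0.0237), with -2.94 when SG library 1 was left out and -3.34 when SG library 2 was. In a bulk sample fewer cells of a type and less RNA per cell cannot be told apart, here and in what follows. The gene lies at chr7:144929931-144939925 on the minus strand, and 23.4% of its exonic bases overlap LTO1 on the other strand. The libraries kept strand, but how the counting treated strand is not given in the sources used here, and reads of LTO1 may stand in this value.

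Ccnd2, the D-type cyclin linked to self-renewal of cultured spermatogonial stem cells, had 2751 and 2768 normalized counts in dSG, against 22317 and 18900.2 in SG. It was the most abundant of the 10 in reads, with 6848 reads even in the shallow SG library. The dSG values were nearly equal, and the 2 SG values were the closest pair, in log2 terms, after those of Cdkn1b. Ccnd2 averaged 2759 ± 11.5 in dSG and 20608.5 ± 2416 in SG, and was 7.43-fold lower in dSG on the fitted scale. The log2 fold change was -2.89 (SE 0.18, 95% interval -3.39 to -2.40, adjusted p = 0.0237). It was -2.77 without SG library 1 and -3.01 without SG library 2. It spans chr6:127125162-127152193 on the minus strand, with 7.86% of its exonic bases under antisense genes.

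Ccnd3 did not follow the other 2 to the same extent. It encodes cyclin D3, the family member that often goes with differentiation in other lineages. The values were 1090.2 and 1053 normalized counts in dSG, against 2539 and 1449 in SG. The groups do not overlap, yet SG library 2 stood closer to the dSG libraries than to SG library 1. The log2 fold change of -0.84 (SE 0.32, 95% interval -1.69 to 0.01) had an adjusted p of 0.190. It was -0.43 without SG library 1 and -1.24 without SG library 2. Ccnd3 is at chr17:47505051-47599691 on the plus strand, and 18.6% of its longest transcript is also found, at 95% identity or more, in the pseudogene Ccnd3-ps, so reads may have been split between them.

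The 2 kinases differed in sign. Cdk4 encodes the kinase that pairs with D-type cyclins in most tissues. It had 2215 and 2211 normalized counts in dSG, against 5863 and 3779 in SG. All SG values lay above all dSG values, and the dSG values were nearly equal. Means were 2213 ± 3.31 in dSG and 4821 ± 1473 in SG, and the log2 fold change of -1.09 (SE 0.27, 95% interval -1.80 to -0.37) had an adjusted p of 0.0942. Cdk4 was called lower by DESeq2 (adjusted p = 0.0139) and after correction for GC content (log2 fold change -0.73, adjusted p = 0.0265), and not by edgeR (adjusted p = 0.0719). With SG library 1 or SG library 2 left out its log2 fold change was -0.77 or -1.40. At chr10:127063534-127067920 on the plus strand, 19.7% of its exonic bases overlap Tspan31 on the other strand.

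Cdk6, which encodes the second partner of the D-type cyclins and is best known in blood cells, had 717 and 776 normalized counts in dSG, against 375 and 241 in SG. It was the only one of the 5 cyclin and kinase genes with higher values in dSG, and each dSG library lay above both SG libraries. The means were 746 ± 42.0 in dSG and 308 ± 94.6 in SG, or 2.46-fold higher in dSG on the fitted scale. The log2 fold change of 1.30 (SE 0.28, 95% interval 0.55 to 2.05) did not pass in limma (adjusted p = 0.0758) or edgeR (adjusted p = 0.0537) and passed in DESeq2 (adjusted p = 0.00450). Without SG library 1 it was 1.61 and without SG library 2 it was 0.99. With all 4 libraries and GC correction it was 1.03 (limma adjusted p = 0.0990). Only 115 reads stood behind the value of SG library 1. The gene covers chr5:3341485-3531008 on the plus strand.

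Of the CIP/KIP inhibitors, 1 fell and 1 did not pass. Cdkn1a encodes p21, an inhibitor best known as the product that p53 induces in response to DNA damage. It had 71.8 and 69.5 normalized counts in dSG, against 606 and 359 in SG. The 2 dSG libraries, with 99 and 111 reads, were close to each other, and both SG libraries lay far above them. Cdkn1a averaged 70.6 ± 1.65 in dSG and 483 ± 175 in SG, and was 6.31-fold lower in dSG on the fitted scale. The log2 fold change was -2.66 (SE 0.32, 95% interval -3.52 to -1.79, adjusted p = 0.0300). It was -2.28 or -3.03 without SG library 1 or SG library 2. The gene is at chr17:29090976-29100727 on the plus strand. So an inhibitor fell together with 2 of the cyclins.

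Cdkn1b encodes p27, the inhibitor that accumulates in resting cells. The values were 159 and 166 normalized counts in dSG, against 179 and 194 in SG. The groups do not overlap, but the gap between them was smaller than that between the SG libraries. With a log2 fold change of -0.19 (SE 0.21, 95% interval -0.76 to 0.37, adjusted p = 0.561), a change of more than 1.69-fold in the direction of lower values lies outside this interval. Leaving out SG library 1 or SG library 2 gave -0.25 or -0.14. After GC correction the log2 fold change was -0.65 (95% interval -1.23 to -0.08, limma adjusted p = 0.0972). The 1.69-fold bound thus holds only for the fit without that correction. Cdkn1b, at chr6:134920401-134925513, overlaps no other gene.

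Neither INK4 inhibitor had groups that were apart. Cdkn2d encodes p19, which in mice holds CDK4 and CDK6 in check in the testis and elsewhere. It had 247 and 217 normalized counts in dSG, against 280.3 and 152 in SG, so both dSG values lay between the SG values. The log2 fold change was 0.16 (SE 0.36, 95% interval -0.79 to 1.11, adjusted p = 0.779). Cdkn2c encodes p18, its close relative. Values were 53.7 and 57.0 in dSG, against 143 and 37.1 in SG. Here the SG libraries differed more than those of any other of the 10 genes, on 44 and 59 reads. Its log2 fold change was -0.39 (SE 0.66, 95% interval -2.15 to 1.36, adjusted p = 0.707), and its sign depended on the library used, with 0.53 without SG library 1 and -1.31 without SG library 2. For Cdkn2d the corresponding values were 0.59 and -0.27. Cdkn2c lies at chr4:109660876-109667189 and Cdkn2d at chr9:21288410-21291407, both on the minus strand with no overlapping gene.

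Rb1, the substrate, had 1683 and 1947 normalized counts in dSG, against 671 and 1578 in SG. Both dSG libraries were above both SG libraries, but SG library 2 was nearer to dSG than to SG library 1. Means were 1815 ± 187 in dSG and 1124 ± 641 in SG, and the log2 fold change of 0.81 (SE 0.45, 95% interval -0.38 to 2.01) had an adjusted p of 0.305. It was 0.20 without SG library 1 and 1.43 without SG library 2. The size of the difference in Rb1 thus depended on which SG library was used. The gene is at chr14:73183673-73325822 on the minus strand, and 14.9% of its exonic bases overlap Rcbtb2 or Lpar6 on the other strand.

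**Figure D2:**
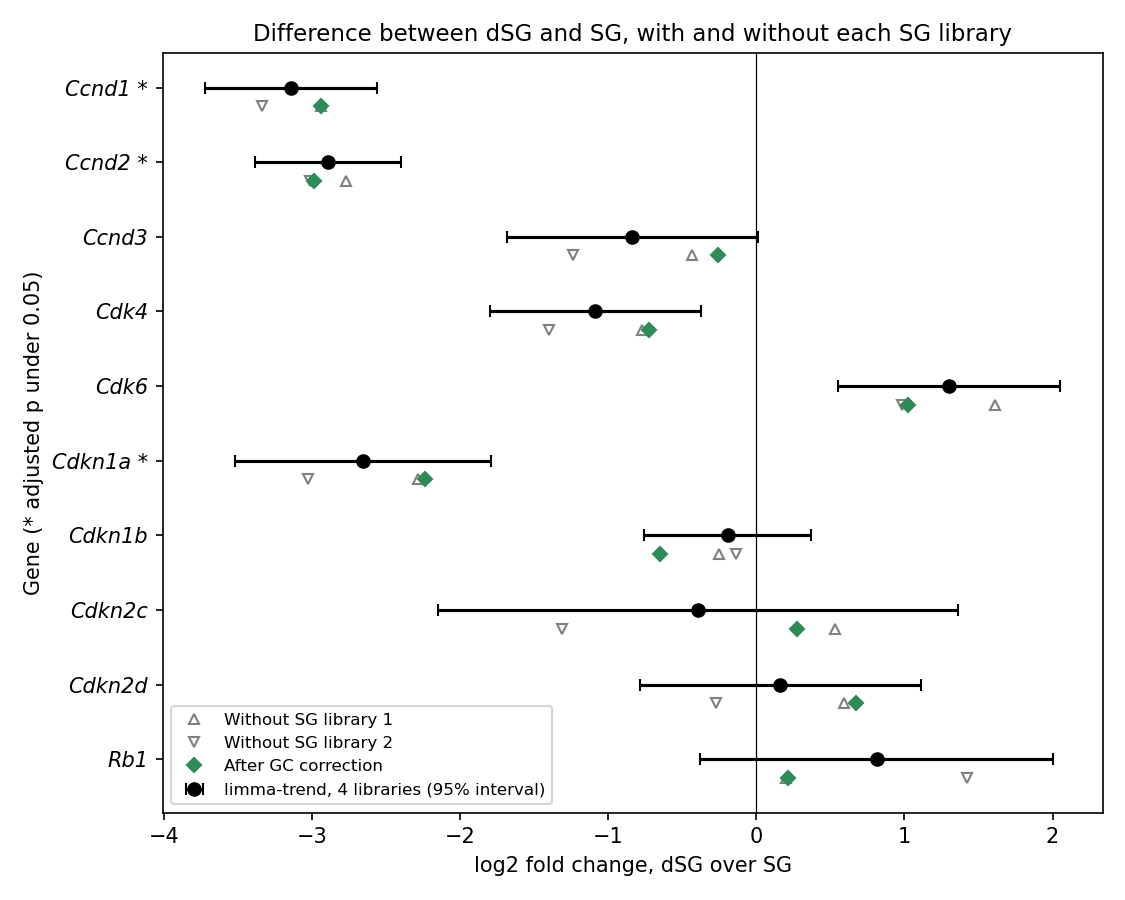
Log2 fold change of dSG over SG (horizontal axis) for each of the 10 genes. Black points are the limma estimates from 4 libraries with their 95% intervals, open triangles the estimates without SG library 1 (pointing up) or SG library 2 (pointing down), green diamonds the estimates after GC correction, and an asterisk marks an adjusted p under 0.05. Ccnd1, Ccnd2 and Cdkn1a stay below -2 under each of these, and the marks of Cdkn2c and Cdkn2d fall on both sides of 0.

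The SG libraries differed from each other along the GC content of the transcripts. The 10 genes ranked in nearly the same order by GC content and by that difference. Spearman's rho between GC content and the log2 ratio of library 1 to library 2 was 0.28 in dSG and 0.73 in SG over 14102 genes, a description across genes and not across replicates. Across the 10 genes, which share these libraries, the rho for SG was 0.95. Rb1, with the lowest GC content of the 10 at 41.2%, had a log2 difference of -1.23, lower in SG library 1, and Cdkn2c, with the highest at 58.0%, had one of 1.84. Ccnd2, at 47.1%, differed by 0.24. Not every gene lay near the curve of all tested genes. Cdk6, at 45.1%, differed by 0.63, where the bin of tested genes around 45.0% had a median of -0.37. After each library's log2 values were corrected for GC content, 4 of the 10 genes were called lower and 0 higher, where 11.5% and 10.8% of all tested genes were called. Ccnd1 (-2.94), Ccnd2 (-2.99) and Cdkn1a (-2.24) held their calls with Cdk4 added. Ccnd3 came to -0.26, Rb1 to 0.21, Cdk6 to 1.03, Cdkn2d to 0.67 and Cdkn1b to -0.65, all without passing. Cdkn2c turned its sign to 0.28. What set the GC slope of SG library 1 was not tested.

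**Figure D3:**
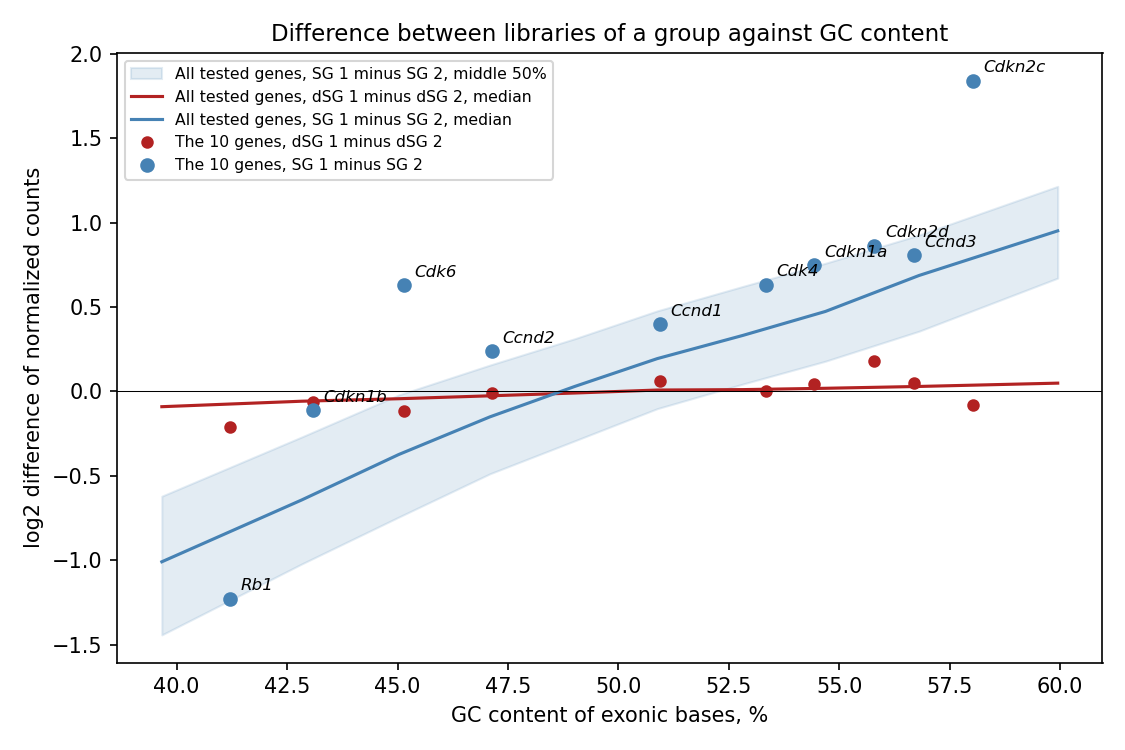
Log2 difference of normalized counts between the libraries of a group (vertical axis) against GC content in percent (horizontal axis), for dSG (red) and SG (blue). GC content is that of each gene's longest transcript, although the axis label names exonic bases. Lines are medians of all tested genes in 10 bins of GC content, the band is the middle 50% for SG, and points are the 10 genes. The SG points run from -1.23 (Rb1) to 1.84 (Cdkn2c), and the dSG points stay between -0.21 and 0.18.

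Levels of different genes were compared per kilobase of exonic bases. In dSG the 3 D-type cyclins together stood at 504 and 498 normalized counts per kb, against 3536 and 2837 in SG, while Cdk4 and Cdk6 together stood at 733 and 736, against 1831 and 1180. Per kb, the summed kinase level was thus above that of the cyclins in both dSG libraries and below it in both SG libraries. Undivided by length, the kinases were below the cyclins in dSG as well, at 2932 and 2987 normalized counts against 4253 and 4214 for the cyclins, so the dSG order depended on the division by length. With the longest coding transcript of each gene as its length the order held, and the families were closer in dSG, at 1141 and 1144 for the kinases and 1061 and 1041 for the cyclins.

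Within the D-type cyclins the shares shifted toward Ccnd3. A share is set within 1 library, so the size factor has no part in it. Ccnd3 made up 24.7% and 24.1% of the per-kb cyclin level in dSG, against 8.18% and 5.82% in SG. Ccnd2 made up 58.0% and 59.1% in dSG, against 67.1% and 70.8% in SG, and Ccnd1 made up 17.3% and 16.8% in dSG, against 24.7% and 23.4% in SG. No share overlapped between the groups, though 2 libraries against 2 cannot give an exact two-sided permutation p under 0.333. Which cyclin led in dSG depended on the length. Ccnd2 led per kb of all exonic bases, whereas per kb of the longest coding transcript, a choice made after the data were seen, Ccnd3 had 48.6% and 47.9% in dSG, against 20.6% and 15.2% in SG, and Ccnd2 had 41.0% and 42.0% in dSG, against 60.5% and 66.2% in SG. In each version the share of Ccnd3 was higher in dSG.

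Cdk6 took 6.99% and 7.54% of the per-kb level of the 2 kinases in dSG, against 1.46% and 1.46% in SG. The SG libraries, so unlike in other respects, gave the same share. Cdkn1a made up 36.7% and 34.9% of the CIP/KIP level in dSG, against 81.2% and 70.4% in SG, so that Cdkn1b was the more abundant CIP/KIP transcript per kb in dSG and Cdkn1a in SG. With the longest coding transcripts the dSG shares of Cdkn1a were 49.7% and 47.8%, near an even split. The INK4 pair showed no such shift, since Cdkn2d held 88.7% and 86.7% in dSG, against 76.9% and 87.5% in SG, with overlapping groups.

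**Figure D4:**
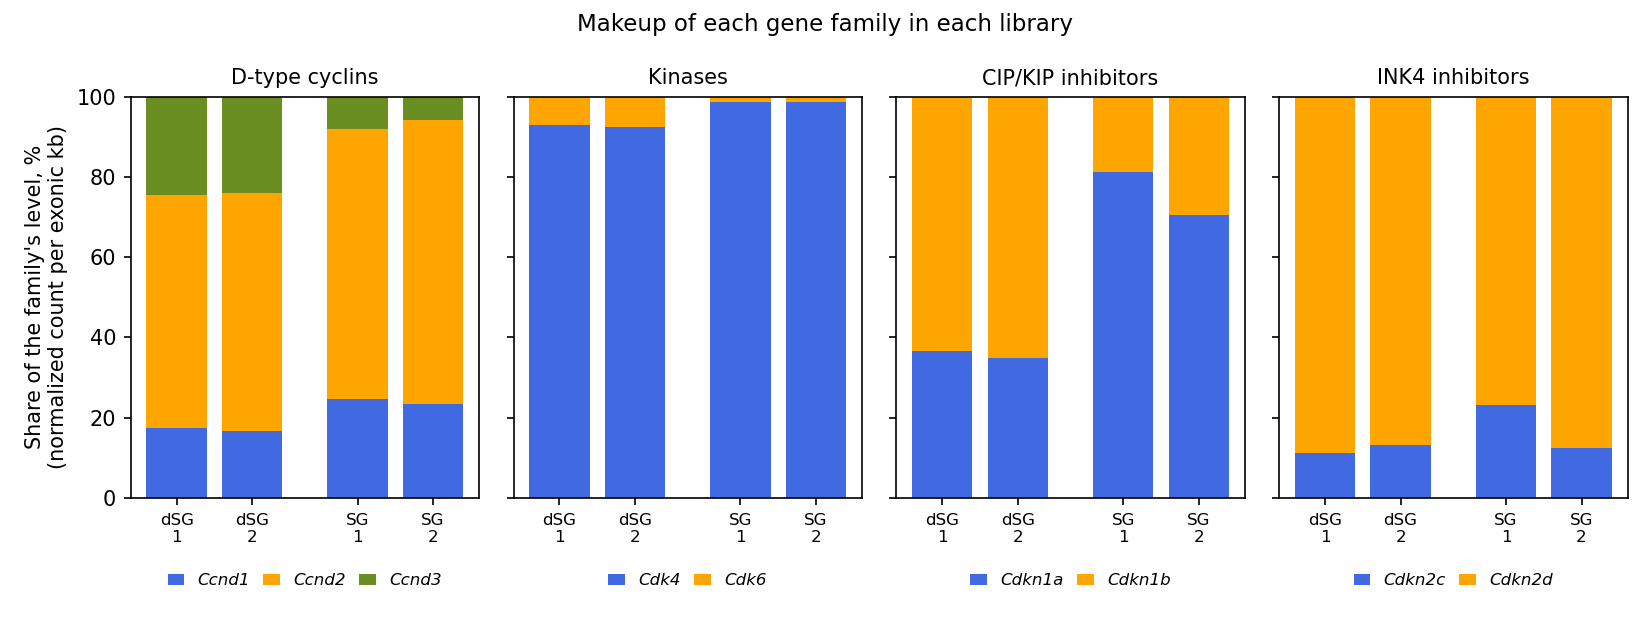
Share in percent (vertical axis) that each gene holds of its family's level, in normalized counts per exonic kilobase, in the dSG libraries (left pair of each panel) and the SG libraries (right pair). Bars are single libraries. Ccnd3 takes 24.7% and 24.1% of the D-type cyclins in dSG against 8.18% and 5.82% in SG, and Cdkn1b takes most of the CIP/KIP level only in dSG.

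Per kilobase, Cdk4 had the highest mean level of the 10 genes in dSG (681), followed by Rb1 (302) and Ccnd2 (293), whose libraries overlapped, and then by Cdkn2d (147), Ccnd3 (122), Ccnd1 (85.5), Cdk6 (53.4), Cdkn1b (35.7), Cdkn2c (20.6) and Cdkn1a (19.9). Only the neighbours Rb1 and Ccnd2, and Cdkn2c and Cdkn1a, overlapped in that order. In SG the order began with Ccnd2 (2190.3), Cdk4 (1484), Ccnd1 (769) and Ccnd3 (227), none of which overlapped its neighbour among these 4. Rb1 (187), Cdkn2d (137) and Cdkn1a (136) could not be ranked, since their libraries overlapped each other and those of Ccnd3. Below them Cdkn1b (41.0) lay above Cdk6 (22.0) in both libraries, while Cdkn2c (33.6) overlapped both. Per kb, Cdk6 thus lay below Cdkn1b in SG and above it in dSG, and Ccnd2 lay above Cdk4 in SG and below it in dSG. Both changes of order depended on the division by length. Undivided, Cdk6 was above Cdkn1b in SG as well, at 375 and 241 normalized counts against 179 and 194. Ccnd2 was likewise above Cdk4 in dSG, at 2751 and 2768 against 2215 and 2211.

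Genes with the pattern most like that of each called gene were sought by the Euclidean distance of log2 values, centred on the gene's mean, over the 4 libraries. For Ccnd1 the nearest were Rasgrp2 (distance 0.16, log2 fold change -3.07), Etv4 (0.17, -2.99) and Hoxc13 (0.18, -3.13). Msx2 (0.086) was close to Ccnd2. Nmnat2 (0.10) was as well, but it is a low gene with 4.35 and 5.01 normalized counts in dSG, against 61.9 and 54.1 in SG, and the 4 counts added before the logarithm shrink its difference. Cdkn1a was nearest to Tunar (0.061), Ret (0.081) and Rapgef3 (0.097). Ret, which encodes the receptor that signals for GDNF in spermatogonial stem cells, had 2014 and 1985 normalized counts in dSG, against 17510 and 10011 in SG. Among the 10 genes themselves, Ccnd1 and Ccnd2 were 0.28 apart, Cdkn1a lay 0.43 from Ccnd2 and 0.55 from Ccnd1, and Cdk6 lay 4.45 from Ccnd1. With 4 libraries in 2 groups, many genes of similar fold change must lie close together.

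The rest of the G1 to S pathway was followed in 5 lists, in which 1 of 55 tested genes was called. Over all tested genes 4.91% were called lower and 1.16% higher. These shares were 6% and 1.4% by edgeR, 10.4% and 3.32% by DESeq2, and 11.5% and 10.8% after GC correction. At an unadjusted p under 0.05, 2301 and 1476 of 14108 genes were lower and higher. The counts of each list below are to be read beside these. None of 10 other cyclins and kinases of the G1 to S step passed, and their median log2 fold change was 0.23, against -0.62 for the 10 genes above. After GC correction these medians were -0.30 and -0.45, so that of the list turned its sign, and Ccne1 was called lower (adjusted p = 0.0427). Ccne1, which encodes the cyclin that acts after the D-type cyclins, had 356 and 348 normalized counts in dSG, against 834 and 566 in SG (log2 fold change -0.96, adjusted p = 0.111). The phosphatase genes Cdc25a (-0.58) and Cdc25b (-0.54) and the CDK-activating kinase gene Cdk7 (0.57) had adjusted p-values from 0.188 to 0.367. This list had 1 gene lower and 0 higher at an unadjusted p under 0.05, with 0 called by edgeR or DESeq2.

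Among 16 pocket proteins and E2F factors, the transcription factors that RB1 and its relatives hold, 1 was lower and 0 were higher. E2f2, which encodes an activating E2F, had 215 and 206 normalized counts in dSG, against 785 and 523 in SG (log2 fold change -1.59, SE 0.27, adjusted p = 0.0497). Its call was at the edge, since it passed in 11 of 18 alternatives and missed without either dSG library (adjusted p = 0.214 and 0.259). E2f1, another activator, had 1758 and 1619 in dSG, against 4989 and 2714 in SG (-1.12, adjusted p = 0.134), and E2f3 had a log2 fold change of -0.65 (adjusted p = 0.107). In the other direction Rbl2, which encodes the RB1 relative p130, had 262 and 261 in dSG, against 127 and 121 in SG (1.05, adjusted p = 0.0651). DESeq2 called 2 of the list lower, E2f2 and E2f1 (adjusted p = 0.0160 for E2f1), and 1 higher, Rbl2 (adjusted p = 0.0499). After GC correction 2 were called lower, E2f2 and E2f3 (adjusted p = 0.0273 for E2f3), and 1 higher, Rbl2 (adjusted p = 0.0256). The list's median was -0.05.

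None of the 4 other CDK inhibitor genes was called, and none reached an unadjusted p under 0.05 or a call in edgeR or DESeq2. Cdkn2a, whose reads cannot be divided between its p16 and ARF products in a table per gene, had 616 and 558 normalized counts in dSG, against 2170.4 and 660.1 in SG (-1.03, adjusted p = 0.323), where SG library 1 alone was high. Log2 fold changes were 1.60 for Cdkn3, -0.59 for Cdkn1c and -0.54 for Cdkn2b, with adjusted p-values from 0.337 to 0.470. These values depended on SG library 1, with 5 reads for Cdkn3, and without it they were 0.21 for Cdkn3, -0.10 for Cdkn1c, 0.09 for Cdkn2b and -0.17 for Cdkn2a. Of 10 ubiquitin ligase parts that act on cyclins or on CDK inhibitors, 0 were called, with 0 in edgeR or DESeq2 as well and, at an unadjusted p under 0.05, 1 lower and 1 higher. Skp2, which encodes the subunit that brings p27 to its destruction, had a log2 fold change of -0.78 (adjusted p = 0.105), Ccnf of -0.54, Cul1 of 0.63 and the low gene Fbxo4 of 1.65 (adjusted p = 0.0903). After GC correction 1 of the 10 was called lower, Skp2 (adjusted p = 0.0491), and 3 higher, Fbxo4, Ambra1 and Fzr1 (adjusted p from 0.0159 to 0.0443).

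Replication and mitosis markers, which report whether cells are dividing, had no call in either direction. Of 15 tested, 0 were called, neither edgeR nor DESeq2 called any, and an unadjusted p under 0.05 was reached by 3 that were lower and 0 that were higher. The largest differences by p were those of the replication licensing genes Mcm5 (log2 fold change -0.77, adjusted p = 0.123), Mcm2 (-0.67), Mcm6 (-0.49) and Mcm3 (-0.51). Mcm5 had 3374 and 3358 normalized counts in dSG, against 6704 and 4932 in SG. The list's median was -0.17, and its log2 fold changes ran from -0.77 to 0.90, a narrower range than that of the 10 genes, -3.14 to 1.30. After GC correction 3 of the 15 were called lower, Mcm5, Mcm4 and Top2a, and 1 higher, Cdc20 (adjusted p from 0.0201 to 0.0438).

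**Figure D5:**
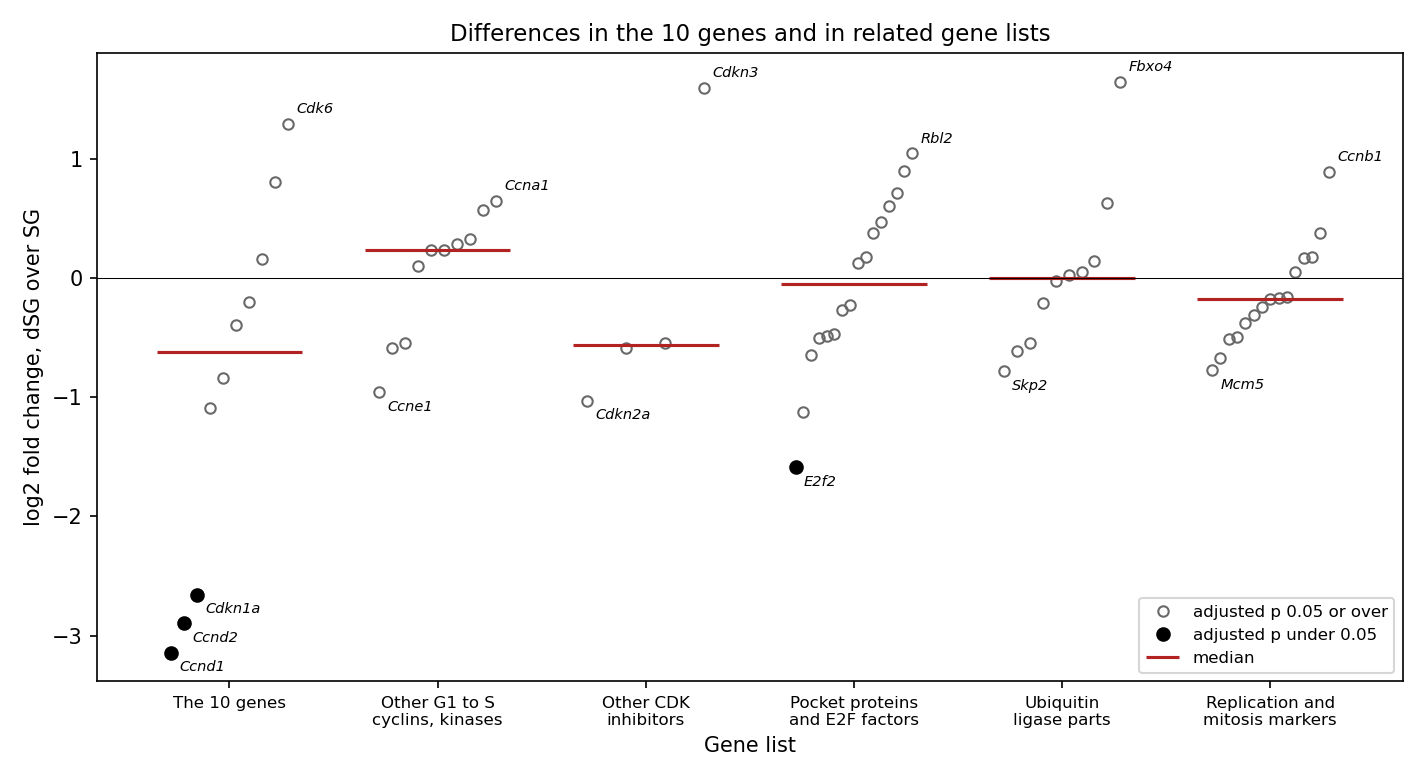
Log2 fold change of dSG over SG (vertical axis) for the 10 genes and for 5 related lists (horizontal axis). Each point is a tested gene, filled where the adjusted p is under 0.05, red lines are list medians, and the lowest and highest gene of each list and the called genes are named. Ccnd1, Ccnd2, Cdkn1a and E2f2 are the filled points, all below 0.

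Some markers of other cells were lower in dSG along with the 3 genes that fell, and others were not. Of 16 fibroblast and feeder markers 9 were tested, 2 were called lower (Pdgfra and Col6a2) and 0 higher, and their summed level was 5662 and 5746 normalized counts in dSG, against 16607 and 11681 in SG, with Fn1 the largest single part in each library. The median log2 fold change of the tested markers of this list was -2.02. Col1a1 (-3.05), Col6a1 (-2.14) and Sparc (-2.02) had adjusted p-values from 0.0567 to 0.0794. All of these passed as lower after GC correction (adjusted p = 0.0232, 0.0210 and 0.0179). Timp3 (log2 fold change 1.06, adjusted p = 0.0688) and Col1a2 (1.60, adjusted p = 0.159) of this list had higher values in dSG and passed as higher after GC correction (adjusted p = 0.0230 and 0.0300). No marker of the list was at 0 in every library, but Dcn, Lum and S100a4 had at most 0.629 in either SG library. Of 6 Sertoli markers 5 were tested and 2 were lower (Sox9 and Clu), with sums of 191 and 199 in dSG, against 763 and 493 in SG, and Fshr, a defining Sertoli gene, was at 0 in both SG libraries. Wt1, another Sertoli marker, had a log2 fold change of 0.15. Of 4 endothelial markers 1, Pecam1, was lower, and the sums were 191 and 223 in dSG, against 440 and 488 in SG, while Tek had a log2 fold change of 1.01 (adjusted p = 0.200). Leydig and blood markers had no calls, and the 5 germ cell markers had none, with a median log2 fold change of 0.03. Fibroblasts are also known to express Ccnd1, Ccnd2 and Cdkn1a, and the part that other cells had in the values of these genes was not tested.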

How the data were processed

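RNA-seq values of 2 dSG and 2 SG libraries were used. From total RNA the authors prepared directional libraries sequenced at both ends. Alignment to GRCm38 was with Subread and counting with featureCounts 1.5.3, tools that the submitters' processing notes also name together with DESeq2. Which annotation was counted, with which strand option and with what done about multi-mapping reads is not given in the sources used here. The authors deposited, as signal, reads per gene over a size factor of the library (called normalized counts here), and division by the smallest step gave whole reads for 100% of values at a tolerance of 0.01. The table also holds the authors' own fold changes, standard errors, test statistics and p-values from DESeq2, which were not used.

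Testing took genes that reached 20 normalized counts in 2 or more libraries, and was done on log2(normalized count + 4) with limma 3.58.1 (lmFit and eBayes with trend, R 4.3.3, condition as the only term, two-sided). Adjustment was by Benjamini and Hochberg over all tested genes, a call needs an adjusted p under 0.05, and a fold change, taken on the log2 scale after the pseudocount of 4 was added, understates low genes. All adjusted p-values are from limma unless edgeR 4.0.16 or DESeq2 1.42.0, run on the recovered reads, is named. Means are given ± SD over 2 libraries. Positions, exonic lengths, GC content and coding sequences came from GENCODE M21, with GC content taken over each gene's longest transcript. GC correction subtracted a smooth curve on GC content from each library's values. The steps were tested on simulated data.

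The genes and lists were chosen with earlier results of these data known. All 10 genes are named, and from each related list the called genes and up to 4 with the smallest p. For each called gene the 3 genes nearest in pattern are named, without predicted genes, and 1 of them is not reported here. Alternatives changed the scaling, filter, pseudocount, variance model, weights, test and GC correction, left out each library and added the replicate block.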

Additional observations from a re-analysis of the deposited data

How the results depend on the processing

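Depth limits Cdkn2c and Cdkn1b most, at 44 and 55 reads in SG library 1. The 3 falls were called under all alternatives, with log2 fold changes from -3.34 to -2.94 (Ccnd1), -3.01 to -2.66 (Ccnd2) and -3.03 to -2.20 (Cdkn1a). Cdkn2c was 0.28 after GC correction, with or without the replicate block, and ran from -1.31 to 0.53 with 1 library left out, and Cdkn2d from -0.27 to 0.59. Of the 10 genes, those called higher numbered 1 (Cdk6) with array weights, with the replicate block and by DESeq2, 2 with GC correction and the replicate block, and 0 to 3 with 1 library left out, where 3 to 6 were called lower. All tested genes called higher and lower, 164 and 692 in the test as reported, numbered 108 and 527 with no filter, 47 and 273 with the stricter filter, 304 and 977 with array weights, 1150 and 1790 with the replicate block, 468 and 1468 by DESeq2, 1529 and 1627 after GC correction and 2072 and 2055 with GC correction and the replicate block. With 1 library left out they ran from 41 to 5431 and from 434 to 6021, in fits where the lone library is assumed to vary like the other group. Same-numbered libraries deviated together with a correlation of 0.23, but with 2 pairs they share only a number. The replicate block moved Cdk4 and Cdk6 to adjusted p-values of 0.0112 and 0.00324. E2f2, rerun under the alternatives after its values were seen, ranged from -1.88 to -1.02. Undivided by length, Ccnd2 held 65.2% of the D-type cyclin level in dSG and 78.8% in SG, and per kb of the longest coding transcript 41.5% and 63.4%. Other scalings moved the median of all genes by at most 0.084. The causes were not tested.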
